A study of Mus musculus with 12 samples.

Results

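GABA-A receptors are ligand-gated chloride channels that open on binding GABA and carry most fast inhibition in the mammalian brain. Each receptor is a ring of subunits drawn from several families, and the composition decides where the receptor sits and what it responds to. Alpha and beta subunits together form the GABA-binding site. Receptors with a gamma subunit gather mainly at synapses, whereas receptors with the delta subunit lie outside synapses, respond to low ambient GABA and neurosteroids, and carry tonic inhibition. The genes described here are 7 members of this family, chosen by symbol from the 19312 genes of the deposited expression table: the alpha subunits Gabra2, Gabra3, Gabra4 and Gabra5, the beta subunits Gabrb1 and Gabrb2, and the delta subunit Gabrd. All 7 were found in the table, each as 1 gene, and all 7 passed the filter on low values in each comparison.

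Forebrain RNA was sequenced from 12 male mice at postnatal day 25 (P25), with 3 mice in each of 4 groups. WT-Veh and WT-Mem were wild-type mice, and KO-Veh and KO-Mem were mice homozygous for a deletion of exons 6 and 7 of Shank2, which encodes a scaffold protein of excitatory synapses. The Mem groups received memantine, an NMDA receptor blocker, by mouth at 20 mg/kg in 2 doses per day from P7 to P21, and the Veh groups received the saccharin vehicle. The strain was given as C57BL/6N for all groups, the name of the mutant line gives another strain as the origin of the allele, brains were not pooled, and the labels named whole brain where the methods named forebrain without cerebellum and the brain stem beneath it. As a check of the labels, the normalized read count of Shank2 lay between 2706 and 3178 in the 6 KO mice and between 7156 and 8548 in the 6 WT mice. Markers of cortex, hippocampus, striatum and thalamus were present in every mouse. The summed level of 8 cerebellar markers was 1264 to 1445 in 11 of the 12 mice and 4773 in KO-Veh replicate 3, where the cerebellar subunit gene Gabra6 stood at 254 against 0 to 12.9 elsewhere. Cerebellar granule cells also express Gabrd, so its pooled genotype effect and its vehicle-only genotype effect are given with and without that mouse. The total read depth cannot be read from the values, which the authors scaled to each other. The median of the lowest values above 0 was 0.872 to 1.13 across mice. Whether such a value stands for 1 read was not tested. Values below are normalized read counts, and log2 fold changes are on the scale of log2 (value + 1).

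The 7 genes are related in sequence, which matters for how reads are assigned to them. The stretch shown is coding sequence that starts within the pore-lining segment, a conserved part of the family, and runs past its end. It starts at codons for the same amino acids in all 7 genes. It was read from GENCODE M21 transcripts (GRCm38), is written 5′ to 3′ on the coding strand, and has bases that differ from Gabrd in capitals.
Gabrd: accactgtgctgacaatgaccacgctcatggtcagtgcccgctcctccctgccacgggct
Gabra4: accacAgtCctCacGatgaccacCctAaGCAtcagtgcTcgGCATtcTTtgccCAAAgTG
Gabra5: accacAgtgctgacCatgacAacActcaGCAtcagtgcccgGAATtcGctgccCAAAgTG
Gabra2: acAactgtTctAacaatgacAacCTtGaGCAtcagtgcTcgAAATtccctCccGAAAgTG
Gabra3: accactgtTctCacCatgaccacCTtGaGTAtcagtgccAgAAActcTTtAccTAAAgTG
Gabrb1: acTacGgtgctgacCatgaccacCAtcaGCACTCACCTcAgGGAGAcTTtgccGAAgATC
Gabrb2: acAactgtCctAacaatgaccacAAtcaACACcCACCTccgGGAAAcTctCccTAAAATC
Of these 60 bases, 18 differed between Gabrd and Gabra5, 22 between Gabrd and each of Gabra2, Gabra3 and Gabra4, 28 between Gabrd and Gabrb2, and 29 between Gabrd and Gabrb1. The closest pair was Gabra4 and Gabra5, with 10 different bases. Over whole transcripts, none of the 7 genes shared a run of 31 bases with another on the same strand, and Gabra2 and Gabra3 shared 2 such runs on opposite strands.

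In GRCm38 coordinates, Gabrd lies at chr4:155384980-155398112 on the minus strand, and the stretch shown covers chr4:155386082-155386141 within an exon. Gabra2 (chr5:70957597-71095849, minus strand), Gabra4 (chr5:71569749-71658308, minus strand) and Gabrb1 (chr5:71658113-72149037, plus strand) form a cluster on chromosome 5. Gabrb2 lies at chr11:42419757-42629028 on the plus strand, Gabra3 at chrX:72432681-72656848 on the minus strand, and Gabra5 at chr7:57407672-57510059 on the minus strand, 86.5 Mb from Shank2 on the same chromosome. Gabra4 and Gabrb1 start head to head, and 46 exonic bases are common to both on opposite strands. Gabra5 shares 148 of its 2974 exonic bases with the opposite-strand gene Gm9962. The labels name an Illumina TruSeq RNA kit of the version that does not mark strand, and with such a kit reads in these overlaps cannot be told apart. Exons of Gabrd overlapped no other annotated exon.

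To place the subunits against each other, the normalized read count was divided by exon length, as counts of different genes are comparable only per length. Gabra3 had the highest level of the 7 members, at 800 ± 37.4 normalized counts per kb (SD, n = 12 mice). Gabrb2 (634 ± 65.1), Gabra5 (613 ± 41.1) and Gabrd (600 ± 79.2 per kb) followed, and their ranges over mice overlapped. The lowest Gabrd value (472 per kb) also lay within the range of Gabra4 (412 to 498 per kb). Gabra4 (454 ± 29.5) and Gabra2 (448 ± 28.9 per kb) also overlapped, and Gabrb1 was lowest at 295 ± 33.5 per kb, below every mouse's value of each of the other 6 genes. This order depends on the length used, and with the longest annotated transcript in place of all exons Gabrb2 came first. Together the 7 members held 54.0% ± 0.943 of the summed per-length level of 17 GABA-A subunit genes in the table. The share of Gabrd was 9.40% ± 0.636 in the 6 WT mice (range 8.41% to 10.2%) and 7.48% ± 0.549 in the 6 KO mice (range 6.92% to 8.26%), with no overlap.

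**Figure D1:**
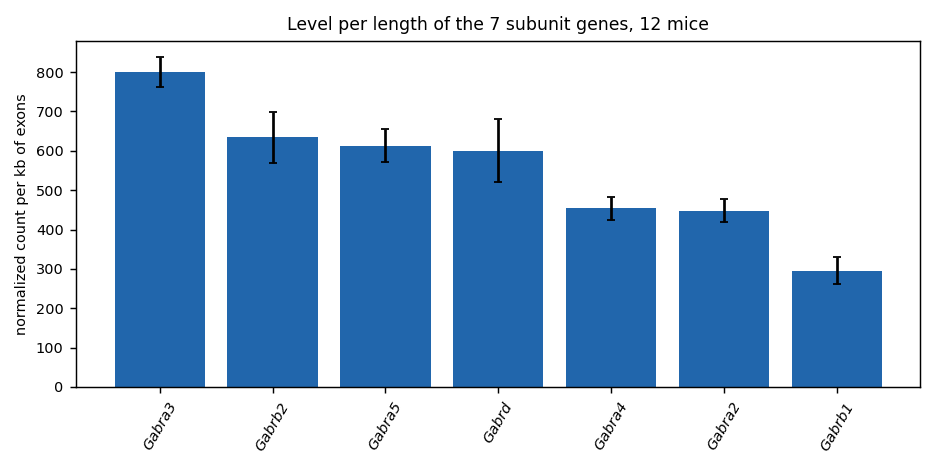
Normalized read count per kb of exons for the 7 subunit genes, as bars of the mean with the SD over 12 mice. The bars run from 800 per kb for Gabra3 to 295 per kb for Gabrb1, with Gabrb2, Gabra5 and Gabrd close together between 600 and 634.

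The delta subunit gene was the member that separated the genotypes. Normalized read counts of Gabrd were 1973, 1976 and 1837 under vehicle (WT-Veh) and 1832, 1949 and 1971 after memantine (WT-Mem) in wild-type brains. The KO-Veh mice had 1630, 1698 and 1512, and the KO-Mem mice had 1356, 1428 and 1549. The group means were 1929 ± 79.4, 1917 ± 74.5, 1613 ± 94.2 and 1444 ± 97.6 (SD, n = 3 mice each), in the same order. All 6 KO mice lay below all 6 WT mice, and the lowest WT value (1832) exceeded the highest KO value (1698). Pooled over both treatments, Gabrd fell by 20.7% in KO mice (95% interval -26.6% to -14.3%), a log2 fold change of -0.33 (SE 0.05, limma adjusted p = 0.00497). That call made Gabrd 1 of 7 members called in the pooled genotype comparison. Of all 17655 genes tested, 10.8% were called, a share near 1 in 7, and 5.91% were called lower. Complete separation of the genotypes with lower KO values occurred in 2.2% of all genes.

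Within each treatment, the direction was the same and neither comparison passed the threshold. In Veh-K/W transcripts (KO-Veh against WT-Veh), the log2 fold change of Gabrd was -0.26 (SE 0.07, 95% interval -0.41 to -0.10, limma adjusted p = 0.186). In Mem-K/W transcripts (KO-Mem against WT-Mem), it was -0.41 (SE 0.08, 95% interval -0.58 to -0.24, limma adjusted p = 0.0884). In both, the 3 KO mice lay below the 3 WT mice, as was the case for 10.7% and 13.5% of all genes. None of the 7 members was called in either, against 0.0283% and 0.068% of all genes. With an unadjusted p under 0.05, limma counted 1 of 7 members in each, which was Gabrd, against 14.4% and 21% of all genes. The difference between the 2 effects (interaction) was -0.15 (SE 0.10, 95% interval -0.37 to 0.06, limma adjusted p = 0.947), so a larger genotype difference after memantine was not resolved. Fitting all 12 mice together called Gabrd in Mem-K/W (limma adjusted p = 0.0267), as did leaving out KO-Mem replicate 3 (limma adjusted p = 0.0091). Calls over all genes rose as well. They went from 12 in the main fit to 1911 without KO-Mem replicate 3, and to at most 636 under the alternatives that left out no mouse.

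**Figure D2:**
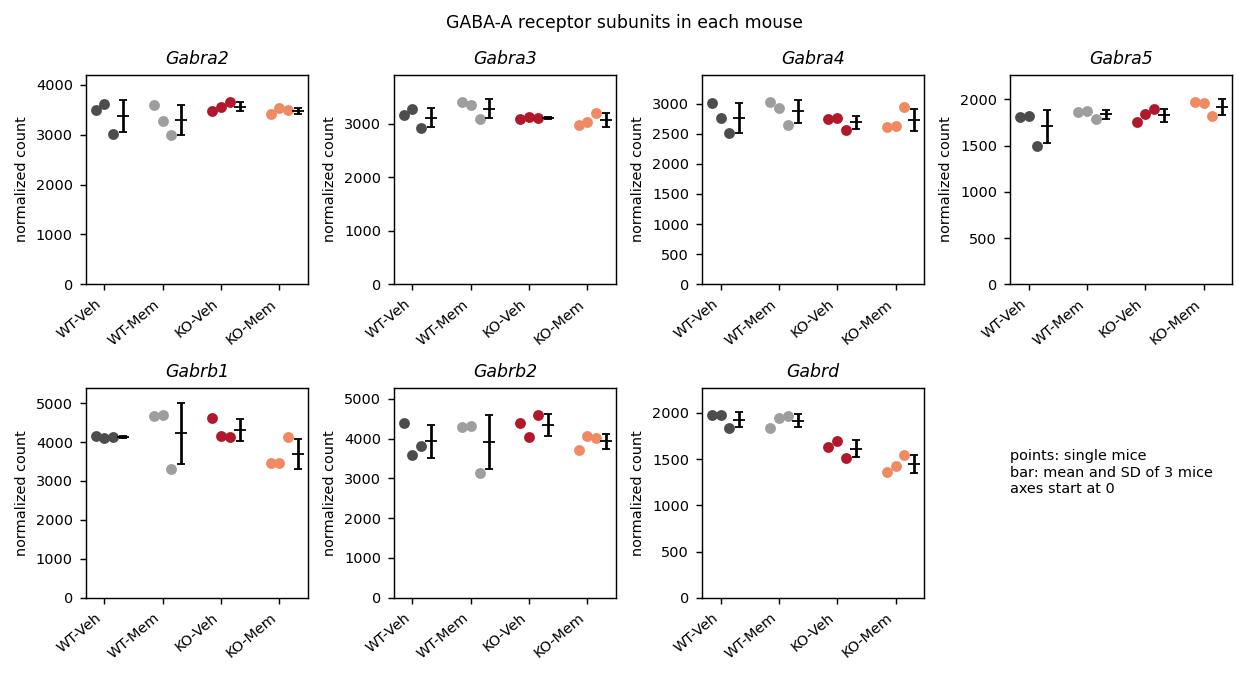
Normalized read count of each of the 7 subunit genes in every mouse, with 1 panel per gene, points for single mice, and a bar for the mean and SD of the 3 mice of a group. In the Gabrd panel the 6 KO points (1356 to 1698) lie below the 6 WT points (1832 to 1976), whereas the genotypes overlap in the other 6 panels.

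Without KO-Veh replicate 3, the mouse with cerebellar markers, the pooled genotype effect on Gabrd was -0.32 (limma adjusted p = 0.0176) and the Veh-K/W effect was -0.21 (limma adjusted p = 0.542). That mouse had the lowest Gabrd value of its group. Several other marker lists held called genes in the pooled comparison, in which 10.8% of all genes were called. A single call in a list of 6 to 8 genes is near that share. Of 6 oligodendrocyte markers, 5 were called lower in KO mice, Cnp and Mog among them, and the summed level of the list was 294380 to 407701 in WT mice and 237444 to 305397 in KO mice. Of 5 endothelial markers, 4 were called lower, with sums of 5734 to 6667 in WT mice and 5239 to 5879 in KO mice. Among 11 interneuron markers, 3 were called lower (Pvalb, Lamp5 and Cck) and 3 higher (Vip, Lhx6 and Htr3a), with sums of 22209 to 24336 in WT mice and 19791 to 21840 in KO mice. Of the thalamic markers 1 of 8 (Rgs16) was lower, as were 1 of 8 for excitatory cortical neurons (Rorb), 2 of 6 for astrocytes (Aqp4 and Gja1) and 1 of 6 for microglia (P2ry12). Astrocyte sums were 98532 to 114372 in WT and 99748 to 110363 in KO mice, and microglial sums 6398 to 7996 and 5197 to 6428. Of the hippocampal markers 1 of 7 (Wfs1) was higher, and none of the 8 striatal, 8 cerebellar and 5 olfactory bulb markers was called. Uncalled, all 5 olfactory bulb markers (median log2 fold change 0.26) and all 8 cerebellar markers (median 0.49) lay above 0. The cerebellar sum was 4773 in KO-Veh replicate 3 and at most 1445 in any other mouse. In Mem-K/W, which does not include that mouse, 3 of 7 tested cerebellar markers lay above 0 and 4 below (median -0.10). Of the 8 striatal markers, 7 lay below 0 and 1 above (median -0.08). Without KO-Veh replicate 3, all 5 oligodendrocyte markers were still called lower, whereas 0 endothelial, 0 microglial, 0 excitatory cortical, 0 hippocampal and 1 astrocyte marker (Aqp4) were called, and interneuron calls were 3 lower and 1 higher. The 10 marker genes that lost the call kept their direction and 88.1% to 107% of their log2 fold change (limma adjusted p up to 0.104), while calls over all genes fell from 1907 to 694 in that fit of 11 mice. No defining marker was at 0 in any mouse except Gabra6 of the cerebellar list. In tissue of many cell types, fewer cells of a type and less RNA per cell cannot be told apart, and the part of these markers in the Gabrd result was not tested.

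The other 6 members showed no call in the pooled genotype comparison. The log2 fold changes were 0.08 for Gabra2 (95% interval -0.03 to 0.20), -0.05 for Gabra3 (-0.14 to 0.05), -0.05 for Gabra4 (-0.17 to 0.06), 0.08 for Gabra5 (-0.03 to 0.20), -0.06 for Gabrb1 (-0.24 to 0.11) and 0.08 for Gabrb2 (-0.08 to 0.25). Their limma adjusted p-values ran from 0.306 to 0.654. None of the 6 intervals reached the estimate for Gabrd, but that of Gabrb1 overlapped the interval of Gabrd (-0.45 to -0.22). The intervals of the beta genes were the widest (SE 0.08). The median over the 7 members was -0.05, beside 0.00 over all genes tested.

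**Figure D3:**
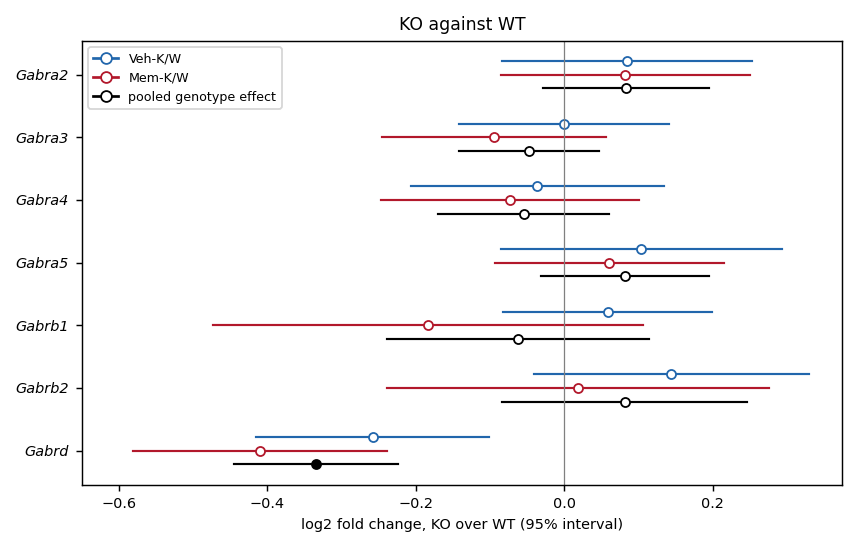
Log2 fold change of KO over WT for the 7 subunit genes, with 95% intervals, in vehicle-treated mice (blue), memantine-treated mice (red) and pooled over both (black), with a filled point where the gene was called. Only the pooled point of Gabrd, at -0.33, is filled, its 3 intervals lie below 0, and the intervals of the other genes cross 0.

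Set beside each of its relatives, Gabrd is given here as a description, with no test, since it was singled out for its separation of the genotypes. Averaged over both treatments, the log2 fold change of Gabrd minus that of the other gene was -0.42 for Gabra2, -0.29 for Gabra3, -0.28 for Gabra4, -0.42 for Gabra5, -0.27 for Gabrb1 and -0.42 for Gabrb2. The ratio of Gabrd to Gabra5 was 0.986 to 1.23 in WT mice and 0.687 to 0.931 in KO mice, and the genotypes were likewise apart in the ratios to Gabra2 and Gabrb2. The ratio to its known extrasynaptic partner Gabra4 was 0.605 to 0.744 in WT mice and 0.518 to 0.617 in KO mice, so these ranges overlapped, as did those of the ratios to Gabra3 and Gabrb1.

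Among the alpha subunits, Gabra4 assembles with delta in the thalamus and dentate gyrus. WT-Veh mice had Gabra4 values of 3013, 2759 and 2508, and WT-Mem mice had 3028, 2933 and 2649. KO-Veh mice had 2743, 2753 and 2562, and KO-Mem mice had 2618, 2625 and 2944. The groups overlapped throughout. Gabra5, enriched in the hippocampus and also largely extrasynaptic, stood at 1806, 1819 and 1497 in WT-Veh and at 1859, 1873 and 1783 in WT-Mem mice. It stood at 1751, 1846 and 1891 in KO-Veh and at 1973, 1962 and 1819 in KO-Mem mice, so the lowest value belonged to 1 WT-Veh mouse and the others lay close together.

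Gabra2, a synaptic subunit also found at the axon initial segment, stood at 3492, 3606 and 3003 in WT-Veh and at 3594, 3279 and 2996 in WT-Mem mice. The KO values were tighter, at 3466, 3562 and 3654 under vehicle (KO-Veh) and 3408, 3526 and 3485 after memantine (KO-Mem). All 6 KO values lay inside the upper part of the WT range or just above it. Gabra3, prominent in the thalamic reticular nucleus, measured 3159, 3264 and 2909 in WT-Veh against 3405, 3345 and 3077 in WT-Mem mice. In the knockouts it measured 3083, 3129 and 3112 (KO-Veh) against 2969, 3025 and 3207 (KO-Mem), with overlap among all groups.

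The beta subunits had the widest spread within a group, with an SD of 783 for Gabrb1 and 681 for Gabrb2 in the WT-Mem mice. Gabrb1 reached 4161, 4105 and 4127 in WT-Veh against 4662, 4691 and 3320 in WT-Mem mice, and 4625, 4157 and 4141 in KO-Veh against 3459, 3467 and 4136 in KO-Mem mice. Gabrb2, a beta subunit expressed widely in the forebrain, reached 4396, 3585 and 3824 in WT-Veh against 4302, 4321 and 3132 in WT-Mem mice, and 4383, 4048 and 4589 in KO-Veh against 3702, 4065 and 4023 in KO-Mem mice. WT-Mem replicate 3 was the lowest of all 12 mice for both genes. Over all 12 mice the coefficient of variation was highest for Gabrd (13.2%), whose genotypes lay apart, followed by 11.4% for Gabrb1 and 10.3% for Gabrb2, 6.45% to 6.70% for Gabra2, Gabra4 and Gabra5, and 4.67% for Gabra3.

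Memantine left no member called. In KO-M/V transcripts (KO-Mem against KO-Veh), no gene of the whole table was called by limma (0% of 17707 genes, with 1573 or 8.88% at an unadjusted p under 0.05), a count that rose to 97 without KO-Mem replicate 3 and stayed at 0 without any other single mouse. The largest member difference was that of Gabrb1, at -0.23 (SE 0.08, 95% interval -0.41 to -0.05, unadjusted p = 0.0197, limma adjusted p = 0.554). The 3 KO-Mem mice lay below the 3 KO-Veh mice, narrowly (4136 against 4141), as did 6.82% of all genes. Without KO-Mem replicate 3 the Gabrb1 difference was -0.31 (limma adjusted p = 0.0686), and without any other single mouse it was -0.26 to -0.18. Gabrd had -0.16 (95% interval -0.33 to 0.01, limma adjusted p = 0.563) and Gabrb2 -0.14 (95% interval -0.29 to 0.00, limma adjusted p = 0.56). The alpha genes lay between -0.04 (Gabra2) and 0.07 (Gabra5).

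In WT-M/V transcripts (WT-Mem against WT-Veh), members ranged from -0.03 (Gabra2) to 0.11 (Gabra5) with limma adjusted p-values of 0.978 to 0.998, and 0.0114% of all genes were called. Gabrd had -0.01 with a 95% interval of -0.16 to 0.15. Pooled over genotypes, memantine differences of the members ran from -0.11 (Gabrb1) to 0.09 (Gabra5), with limma adjusted p-values of 0.646 or more, and 0% of all genes were called by limma (1519 or 8.6% at an unadjusted p under 0.05). The interaction of genotype and memantine was not called for any member or any gene by limma (0%, with 840 genes or 4.76% at an unadjusted p under 0.05), and was largest for Gabrb1 at -0.24 (95% interval -0.58 to 0.10). Both Gabrb1 values leaned on single mice. Without WT-Mem replicate 3 the interaction was -0.41 and the pooled memantine difference -0.05, and without WT-Mem replicate 1 or 2 the interaction was -0.16 in each case. The pooled difference also moved to -0.07 without KO-Veh replicate 1 or KO-Mem replicate 1 or 2, and none of these values was called.

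**Figure D4:**
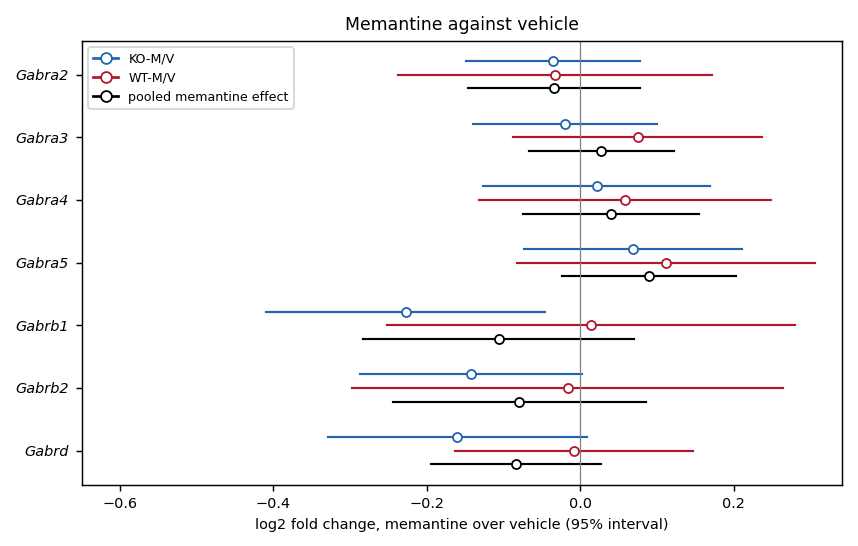
Log2 fold change of memantine over vehicle for the 7 subunit genes with 95% intervals, in KO mice (blue), WT mice (red) and pooled over both (black). No point is filled, as no gene was called, and of the 21 intervals only that of Gabrb1 in KO mice lies wholly below 0.

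The comparisons across both factors share their mice with those above and are given side by side. In KO-M/WT-V transcripts (KO-Mem against WT-Veh), Gabrd was downregulated with a log2 fold change of -0.42 (SE 0.08, limma adjusted p = 0.0317), 1 of 7 members called beside 3.37% of all genes called and 2.05% called lower, and 15.6% of all genes had all KO-Mem mice below all WT-Veh mice. This call was lost when any of the 3 WT-Veh mice or KO-Mem replicate 1 or 2 was left out (limma adjusted p = 0.0728 to 0.139, with log2 fold changes of -0.45 to -0.37) and without the trend of the prior variance (limma adjusted p = 0.146). Without KO-Mem replicate 3, Gabrb1 was called as well (-0.25, limma adjusted p = 0.04), in a fit that called 2490 genes over all genes against 595 in the main fit. Gabra5 had 0.17 (95% interval -0.03 to 0.37, limma adjusted p = 0.257), the highest value of the members. In WT-M/KO-V transcripts (WT-Mem against KO-Veh), Gabrd had 0.25 (SE 0.07, 95% interval 0.10 to 0.40, limma adjusted p = 0.438) with the 3 WT-Mem mice above the 3 KO-Veh mice, as in 7.73% of all genes, and no member was called, against 0.0227% of all genes.

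Across the 12 mice the genes with the pattern most like Gabrd were Hs3st2, a heparan sulfate sulfotransferase gene (Pearson's r = 0.974, Spearman's rho = 0.972), Myl4, a myosin light chain gene (r = 0.968, rho = 0.923), and Gm12481, a processed pseudogene whose reads may belong to its parent gene (r = 0.962, rho = 0.944). These correlations are descriptions over 12 mice that share 2 genotypes, and 203 of 17654 genes had r over 0.9 with Gabrd. For the other members that number was 3 to 34. Hs3st2 ranged from 1071 to 1183 (WT-Veh), 1025 to 1082 (WT-Mem), 749 to 826 (KO-Veh) and 576 to 788 (KO-Mem). All KO mice lay below all WT mice, which the choice of Hs3st2 for its likeness to Gabrd made likely, so this is no separate result.

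**Figure D5:**
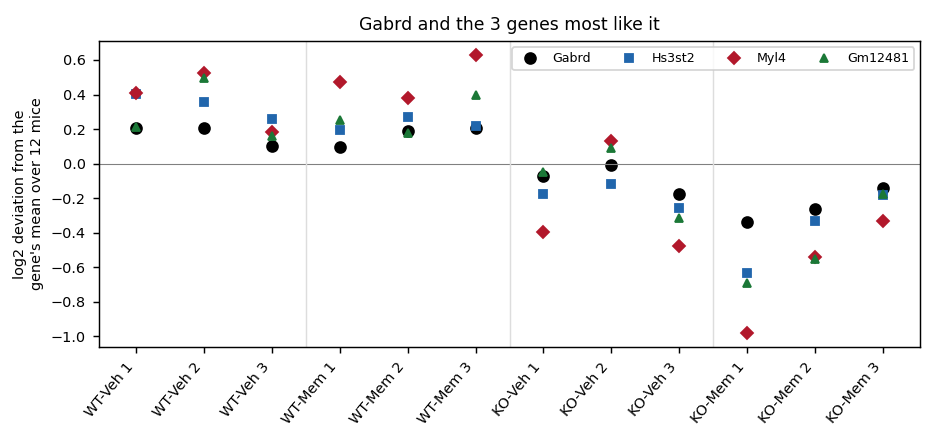
Log2 deviation of Gabrd, Hs3st2, Myl4 and Gm12481 from each gene's own mean over 12 mice, for every mouse in its group. All 4 genes are above their mean in the 6 WT mice and lowest in KO-Mem replicate 1, with Gabrd spanning the least, from -0.34 to 0.21.

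The nearest genes to the other members, by Pearson's r over the same 12 mice, were Arhgap5, Eif4a-ps4 and Gm28052 for Gabra2 (r = 0.927 to 0.924), Ccni, Mtpn and Sertm1 for Gabra3 (0.954 to 0.913), Rabep1, Arhgef7 and Kcnn3 for Gabra4 (0.907 to 0.905), and Otogl, Hdgfl3 and B3gat2 for Gabra5 (0.972 to 0.953). For Gabrb1 they were Homer2, Gm18609 and A330102I10Rik (0.946 to 0.918), and for Gabrb2 Cntnap5b, Kcnb2 and Zbtb20 (0.941 to 0.917). Spearman's rho of these genes was more varied, from 0.620 for Gm28052 and 0.699 for Arhgap5 to 0.965 for Otogl. Within the family, Gabra3 and Gabra4 were most alike (r = 0.817, rho = 0.867), followed by Gabrb1 and Gabrb2 (r = 0.691, rho = 0.741). Gabrd was least like Gabra5 (r = -0.454, rho = -0.559).

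The rest of the GABA system is given for context. Of 12 other GABA-A subunit genes 10 matched the table, and 9 were tested in the pooled genotype comparison. Of these, 7 lay above 0 and 2 below (median log2 fold change 0.17). The comparison called 10.8% of all genes, a share close to 1 in 9. Of the 9 genes, none was called lower and 1 was called higher. It was Gabrg3, a gamma subunit, with 963 to 1281 in WT and 1230 to 1670 in KO mice (log2 fold change 0.23, SE 0.07, limma adjusted p = 0.0469), a call lost without any 1 of 9 of the 12 mice (limma adjusted p up to 0.109), KO-Veh replicate 3 among them, although the log2 fold change stayed between 0.18 and 0.27. Gabrr2, a low-level rho subunit, had 29.4 to 114 in KO-Mem and 15.8 to 28.9 in WT-Mem mice (Mem-K/W log2 fold change 1.55, SE 0.45, limma adjusted p = 0.118).

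Of 9 genes for GABA synthesis, transport and breakdown, 1 was called in the pooled genotype comparison, close to the share of 10.8% over all genes. Gad2, which encodes a GABA-synthesizing enzyme, was 6478 to 7927 in WT and 7805 to 8949 in KO mice, an increase of 0.19 on the log2 scale (SE 0.05, limma adjusted p = 0.0283), a call lost without WT-Mem replicate 3, KO-Veh replicate 1 or 3, or KO-Mem replicate 1 or 2 (limma adjusted p up to 0.0707), although the log2 fold change stayed between 0.16 and 0.22. Among 24 genes of the inhibitory postsynaptic scaffold and subunit trafficking, none was called. The scaffold gene Gphn, whose product gephyrin anchors synaptic GABA-A receptors, had 0.13 (limma adjusted p = 0.225), and the trafficking gene Gabarap had -0.18 (limma adjusted p = 0.063). Neither GABA-B subunit gene was called, with -0.06 for Gabbr1 and -0.05 for Gabbr2. Outside the pooled genotype comparison, no gene of these 4 lists was called in any comparison.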

How the data were processed

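Per the labels and the study's methods, the authors isolated poly-A RNA, built Illumina TruSeq libraries, sequenced paired ends, estimated transcript abundance with Salmon 1.1.0 with GC bias correction on GRCm38, and divided the imported gene values by DESeq2 factors. The deposited signal values are such normalized estimated read counts, not whole, for 12 mice. The submitters' processing notes name R 3.6.2 and DESeq2 1.26.0, and the methods name other versions of both. The annotation release is not given in the sources used here. Symbols, lengths, positions and sequences came from GENCODE M21, which matched 19295 of 19312 genes.

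From these values, limma 3.58.1 in R 4.3.3 (lmFit, eBayes with trend) was run on log2 (value + 1) for genes whose mean value reached 10 over the fitted mice, with Benjamini-Hochberg adjustment over all genes tested. A gene was called at an adjusted p under 0.05. Each of 6 comparisons used its own 6 mice, and the pooled and interaction terms used all 12 in a linear model of genotype and treatment. Intervals are 95% and come from limma. A count test was not used because the values are not counts. The scripts were tested on simulated data. All 7 members were named, with the 3 genes of highest r to each, genes of the context lists that were called or lay at the end of their list in Veh-K/W or Mem-K/W or on which a result turned, and Shank2. Some genes that this rule names are not reported here. The members and lists were chosen with earlier results of these data known. Alternatives were another pseudocount, filter, scaling, prior variance, replicate block, a fit of all mice and leaving out each mouse.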

Additional observations from a re-analysis of the deposited data

How the results depend on the processing

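Of 924 recomputed log2 fold changes of the 7 members, 915 stayed on the same side of the threshold, 6 lost the call, 3 gained it, and 41 took the other sign, from main values of 0.06 or less in size to recomputed values of up to 0.14 in size, none of them called. Gabrd remained called in the pooled genotype comparison under each alternative and without each mouse in turn (log2 fold change -0.36 to -0.31, limma adjusted p = 0.00266 to 0.0254). In Mem-K/W the number of members called rose from 0 to 1 with all 12 mice in one fit, and was 0 to 1 when single mice were left out. In KO-M/WT-V it fell from 1 to 0 without the trend of the prior variance, and was 0 to 2 when single mice were left out. The cause was not tested. With single mice left out, the counts called over all genes moved far more, from 595 to between 1 (without KO-Mem replicate 1 or 2) and 2490 (without KO-Mem replicate 3) in KO-M/WT-V, from 12 to between 2 (without KO-Mem replicate 2) and 1911 (without KO-Mem replicate 3) in Mem-K/W, from 5 to between 2 (without KO-Veh replicate 1 or 3) and 53 (without KO-Veh replicate 2) in Veh-K/W, from 0 to 97 (without KO-Mem replicate 3) in KO-M/V, from 0 to at most 4 in the interaction, and from 1907 to between 694 (without KO-Veh replicate 3) and 2683 in the pooled genotype comparison, so the background shares carry that uncertainty. No pairing of the mice by replicate number was seen, as same-numbered mice correlated between -0.18 and 0.08 in their deviations. With 3 mice per group this cannot exclude a pairing. After blocking on that number (replicate block) the members called were 1 in the pooled genotype comparison, 1 in KO-M/WT-V and 0 in the others. Taking the longest annotated transcript as the length in place of all exons, the shares of the per-length level became 9.31% for Gabra3, 7.29% for Gabra4, 7.41% for Gabra5, 3.23% for Gabrb1, 10.95% for Gabrb2 and 6.93% for Gabrd, which puts Gabrb2 first. Without the trend of the prior variance, Gabrg3 (limma adjusted p = 0.0848) and Gad2 (limma adjusted p = 0.0668) were not called in the pooled genotype comparison, a check added after seeing the data. The 6 differences between Gabrd and another member kept their direction with each mouse left out. Nothing labels the mice of a group as littermates or as separate litters, and 3 mice per group limit what can be resolved.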
